A study of Mus musculus with 6 samples.

Results

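The Gadd45 family and the cyclin-dependent kinase (CDK) inhibitors are growth-arrest genes. They were taken by gene symbol from the deposited RNA-Seq table of colonic crypts. The list named 10 genes, and 9 of the 18049 genes in the table were on it, namely *Gadd45a*, *Gadd45b* and *Gadd45g* together with 6 CDK inhibitors (*Cdkn1a*, *Cdkn1b*, *Cdkn1c*, *Cdkn2b*, *Cdkn2c* and *Cdkn2d*). *Cdkn2a* was not analysed here. The crypts came from a mouse model of Lynch syndrome on a C57BL/6J background, with a Villin-Cre transgene that acts in the intestinal epithelium and a humanized *TgfβRII* that carries a microsatellite repeat. All mice were on a Western-style diet from 8 weeks of age, and both groups carried the same alleles. The 3 control mice were injected with vehicle (20% captisol in PBS), and the other 3 mice received GSK503, an inhibitor of the histone methyltransferase EZH2, at 200 μg/kg by tail vein injection 2 times per week over 9 weeks. GSK503 was prepared in PBS, and no captisol is named for it, so the solvent cannot be told apart from the inhibitor. A library was made from total RNA of each mouse, so every group had 3 libraries, numbered here as in the sample titles. The comparison asks which brakes on the cell cycle had a different RNA level in crypts after EZH2 inhibition.

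GADD45 proteins are small acidic stress proteins. They bind the kinase MAP3K4 upstream of p38 and JNK, and they also bind PCNA and the complex of CDK1 with cyclin B. The Cip/Kip inhibitors (p21, p27 and p57, from *Cdkn1a*, *Cdkn1b* and *Cdkn1c*) act on several CDK and cyclin pairs, whereas the Ink4 inhibitors (p15, p18 and p19, from *Cdkn2b*, *Cdkn2c* and *Cdkn2d*) bind CDK4 and CDK6. In the colon, cells divide in the lower crypt and leave the cell cycle as they move up and differentiate. EZH2 is the catalytic subunit of Polycomb repressive complex 2, and the Ink4 locus is a textbook target of Polycomb repression.

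The 3 *Gadd45* paralogs lie on different chromosomes of GRCm39. *Gadd45a* (ENSMUSG00000036390) spans 67012070 to 67014441 on the minus strand of chromosome 6, *Gadd45b* (ENSMUSG00000015312) spans 80764523 to 80768038 on the plus strand of chromosome 10, and *Gadd45g* (ENSMUSG00000021453) spans 52000714 to 52002508 on the plus strand of chromosome 13. The 250 bases before the RefSeq start of each paralog are shown because *Gadd45g* passed the test below and its paralogs did not. They are given 5′ to 3′ on the strand of the gene with coordinates of GRCm38.p6, the build of the RefSeq promoter table, in which *Gadd45g* covers chr13:51846425-51846674 (plus strand), *Gadd45a* covers chr6:67037408-67037657 (minus strand) and *Gadd45b* covers chr10:80929841-80930090 (plus strand). Capitals mark GGGCGG and CCAAT on either strand, and no match overlapped another.
Gadd45g: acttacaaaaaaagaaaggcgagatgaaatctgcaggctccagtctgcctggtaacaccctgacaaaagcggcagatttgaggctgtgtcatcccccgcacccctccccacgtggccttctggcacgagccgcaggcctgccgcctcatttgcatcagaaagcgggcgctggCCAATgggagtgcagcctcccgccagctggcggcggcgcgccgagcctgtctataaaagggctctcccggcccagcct
Gadd45a: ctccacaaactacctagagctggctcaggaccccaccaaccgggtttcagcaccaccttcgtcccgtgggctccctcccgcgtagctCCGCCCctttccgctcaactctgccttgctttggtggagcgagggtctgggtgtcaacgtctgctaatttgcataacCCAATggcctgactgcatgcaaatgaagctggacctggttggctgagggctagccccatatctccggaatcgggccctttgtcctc
Gadd45b: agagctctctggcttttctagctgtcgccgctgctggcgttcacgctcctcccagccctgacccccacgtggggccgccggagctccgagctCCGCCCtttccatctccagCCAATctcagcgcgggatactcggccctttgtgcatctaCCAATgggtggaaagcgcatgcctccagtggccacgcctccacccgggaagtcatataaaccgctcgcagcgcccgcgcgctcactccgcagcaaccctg
*Gadd45g* held CCAAT at 1 place and no GGGCGG, *Gadd45a* held each motif at 1 place, and *Gadd45b* held CCAAT at 2 places and GGGCGG at 1. RefSeq gave 10 promoters for 8 of the 9 genes and none for *Cdkn1c*. GGGCGG stood in 6 of these 10 promoters and in 32.7% of all 32851 promoters of this length, and CCAAT stood in 5 of 10 and in 33.8% of all. TGAGTCA was in none of the 10 (4.46% of all), and TGACGTCA was in the *Cdkn2b* promoter alone (1.55% of all). In 9 of the 10 promoters the GC content was above the median of all promoters (52.4%), with a range of 42.8% to 77.2%. These matches describe the letters only.

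The 6 libraries held between 108 and 135 times 1000000 estimated counts. The deposited value of a gene is its estimated count per 1000000 of the TMM-scaled library, written here as CPM. The lowest member, *Cdkn1c*, had at least 260 estimated counts in every library, far above the floor of 3 counts, which lay between 0.0228 and 0.0271 CPM and covers counting error only. Epithelial markers (*Krt8*, *Epcam*, *Cldn7*, *Vil1* and *Cdx2*) summed to between 7750 and 8812 CPM in control libraries and between 8342 and 9740 CPM in GSK503 libraries, and none of the 5 was at 0. Smooth muscle markers summed to 4.52 and 4.26 CPM in GSK503 libraries 1 and 2 but to 122 CPM in GSK503 library 3. In control libraries they summed to between 20.9 and 90.1 CPM. Macrophage markers summed to 8.54, 4.54 and 34.1 CPM in GSK503 libraries 1, 2 and 3, and B cell markers to 3.66, 1.95 and 61.4 CPM. Of this last sum, *Jchain* gave 57.9 CPM. T cell markers did not split in this way (9.72, 11.8 and 12.7 CPM). The GSK503 libraries thus differed in stromal RNA and in part of the immune RNA. Transcripts of the X and Y chromosomes also separated the groups. *Xist*, made from the inactive X chromosome, lay between 0.419 and 0.936 CPM in control libraries and between 825 and 1236 CPM in GSK503 libraries. The Y-linked *Uty* lay between 42.5 and 53.7 CPM in control and between 0.67 and 1.08 CPM in GSK503 libraries. A difference between sexes and a difference due to GSK503 therefore cannot be told apart in any result given here.

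To set the genes side by side, values were divided by the joined length of all annotated exons of each gene (CPM per kb). This length ran from 1177 bases for *Gadd45g* to 6358 bases for *Cdkn2c*. It can exceed the length of the main transcript, which lowers the value of a gene with several isoforms. The order of the genes and the shares of the paralogs given below depend on it, whereas the comparison of the groups for the same gene does not. In control crypts *Cdkn1b* (18.6 ± 1.3 CPM per kb), *Gadd45g* (16.8 ± 2.29), *Cdkn2b* (14.5 ± 3.15) and *Gadd45a* (14.4 ± 1.43; SD, n = 3 for each) were the highest, and each overlapped its neighbor in this order. *Cdkn1a* followed with 7.66 ± 1.23 CPM per kb (SD, n = 3), without overlap with *Gadd45a* or with the next gene. The other 4 genes were low, from *Cdkn2d* with 3.76 ± 0.77 CPM per kb to *Cdkn1c* with 1.46 ± 0.462 CPM per kb (SD, n = 3). In GSK503 crypts *Gadd45g* moved to the top of the order with 40.8 ± 5.65 CPM per kb (SD, n = 3), and its lowest library (36.5) lay above the highest library of *Cdkn1b* (19.2). By their means, the order of the other 8 genes was the same in both groups. In GSK503 crypts, however, *Cdkn2b* overlapped *Gadd45a*, and *Gadd45b* overlapped both *Cdkn2c* and *Cdkn1c*.

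**Figure D1:**
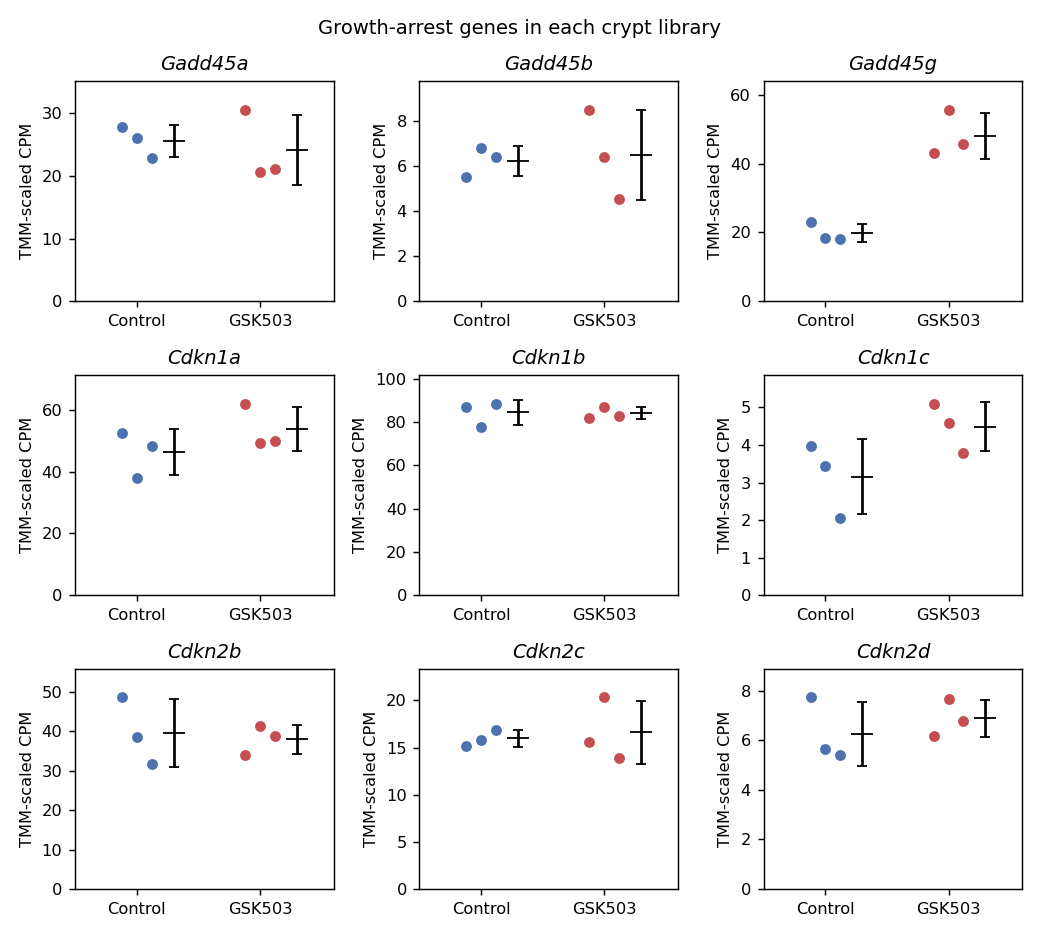
Each panel shows a growth-arrest gene, with its value in TMM-scaled CPM in each library (blue for control, red for GSK503; left to right libraries 1, 2 and 3) and the mean with SD beside the points. For *Gadd45g* every GSK503 library lies above every control library, while the groups overlap for the other 8 genes.

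*Gadd45g* was higher in GSK503 crypts, and it was the only gene of the 9 that passed the test. Its values were 22.9, 18.4 and 18.2 CPM in control libraries 1, 2 and 3 and 43.0, 55.6 and 45.6 CPM in GSK503 libraries 1, 2 and 3. The lowest GSK503 library was thus well above the highest control library, and these values rested on at least 2029 estimated counts per library. The rise was 2.42-fold (95% confidence interval 1.98 to 2.95), or a log2FC of 1.27 (SE 0.13, adjusted p = 0.00247 from limma with Benjamini-Hochberg adjustment over all 16670 genes tested), and 3 mice against 3 cannot give an exact two-sided permutation p below the 0.1 found here. Over all genes tested, 0.498% were called higher and 0.144% were called lower at an adjusted p below 0.05 (1.41% and 0.558% below 0.1, where *Gadd45g* was again the only member of the 9), and *Gadd45g* stood at position 16 in the order of p. These shares stand for 83 genes called higher and 24 called lower, which became 82 and 178 when libraries were scaled by their totals only. With each library left out in turn, the log2FC of *Gadd45g* stayed between 1.16 and 1.38 and the adjusted p from limma was at most 0.0163. The call depended on the model of the variance, since without limma's intensity trend the adjusted p was 0.109. With GSK503 libraries 1 and 2 left out, which left GSK503 library 3 alone against the control libraries, the log2FC was 1.21 (adjusted p = 0.0763 from limma). Goblet cell markers moved with the groups as well. The 7 markers summed to between 10751 and 19098 CPM in control and between 33193 and 51488 CPM in GSK503 libraries, and none was at 0. Most of this sum came from *Clca1* and *Fcgbp*. Each of the 7 was higher in every GSK503 library than in every control library, as were 9.84% of all genes tested. *Spink4*, *Clca1*, *Tff3* and *Spdef* passed the test (adjusted p from 0.00164 to 0.0459 from limma), and *Fcgbp*, *Agr2* and *Zg16* did not. Markers of enteroendocrine cells, another secretory cell type, were lower in sum but split by gene. The 6 markers summed to between 157 and 198 CPM in control and between 103 and 134 CPM in GSK503 libraries, and none was at 0. *Chgb* (log2FC -0.85, adjusted p = 0.0215 from limma) and *Chga* (-0.70, adjusted p = 0.0471 from limma) passed the test. *Neurod1* did not (-0.75, adjusted p = 0.294 from limma). These genes were lower in every GSK503 library than in every control library, as were 9.22% of all genes tested. *Sct* went the other way (log2FC 0.84), *Pyy* had -0.12 and *Pcsk1n* -0.13, with overlap between the groups for each. The part of either cell type in the *Gadd45g* result was not tested. In such bulk samples, more cells of a type and more RNA per cell cannot be told apart.

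The other *Gadd45* genes did not pass the test. *Gadd45a*, the p53-responsive founder of the family, had values of 27.8, 26.1 and 22.8 CPM in control libraries and 30.6, 20.7 and 21.2 CPM in GSK503 libraries. GSK503 library 1 was the highest of all and GSK503 library 2 the lowest, so the groups overlapped. The log2FC of *Gadd45a* was -0.10 (95% confidence interval -0.45 to 0.24, adjusted p = 0.829 from limma). *Gadd45b*, a paralog induced by TGF-β and NF-κB signaling, had values of 5.52, 6.79 and 6.40 CPM in control libraries and 8.51, 6.42 and 4.53 CPM in GSK503 libraries. Its GSK503 libraries lay on both sides of the control libraries, and its spread was wider in the GSK503 group (SD 1.99 against 0.652 CPM). The log2FC of *Gadd45b* was 0.02 (95% confidence interval -0.49 to 0.52, adjusted p = 0.984 from limma) and changed sign (-0.10) when libraries were scaled by their totals only, which lowered the median log2FC of all genes from -0.01 to -0.12.

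A ratio between paralogs within a library hardly depends on the scaling between libraries. The log2 ratio of *Gadd45g* over *Gadd45a*, without regard to gene length, was -0.28, -0.51 and -0.33 in control libraries 1, 2 and 3 and 0.49, 1.42 and 1.10 in GSK503 libraries 1, 2 and 3. The sign of this log2 ratio turned from negative in all control libraries to positive in all GSK503 libraries, and the ratio was 2.59-fold higher (log2 difference 1.38, SE 0.28). For *Gadd45g* over *Gadd45b* the ratio was 2.39-fold higher (log2 difference 1.26, SE 0.36), and the lowest GSK503 library (2.32) again lay above the highest control library (2.04). The exact two-sided permutation p was 0.1 for both ratios, the smallest that 3 against 3 can give, and 0.15 after Benjamini-Hochberg adjustment over the 3 ratios compared. As a share of the summed CPM per kb of the 3 paralogs, *Gadd45g* made up 50.4 ± 2.41% in control and 72 ± 6.70% in GSK503 crypts (SD, n = 3). *Gadd45a* made up 43.2 ± 1.65% and 24.1 ± 5.78%, and *Gadd45b* 6.36 ± 1.17% and 3.84 ± 1.10% (SD, n = 3).

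**Figure D2:**
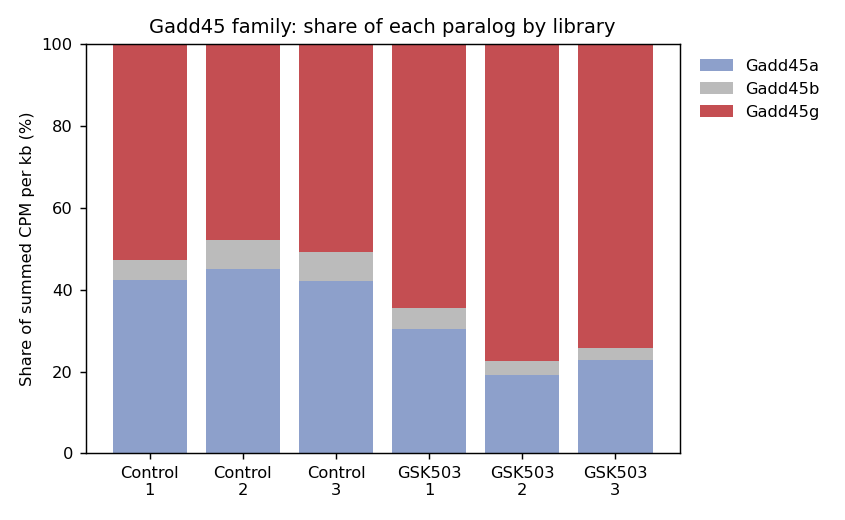
Stacked bars give the share of each *Gadd45* paralog in the summed CPM per kb of the family (%), for each of the 6 libraries. The *Gadd45g* share lies between 47.8% and 52.6% in the control libraries and between 64.5% and 77.4% in the GSK503 libraries.

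None of the 3 Cip/Kip genes passed the test. In GRCm39 *Cdkn1a* (ENSMUSG00000023067) spans 29309936 to 29319701 on the plus strand of chromosome 17, *Cdkn1b* (ENSMUSG00000003031) spans 134897364 to 134902476 on the plus strand of chromosome 6, and *Cdkn1c* (ENSMUSG00000037664) spans 143012069 to 143014806 on the minus strand of chromosome 7. *Cdkn1a*, which encodes p21 and is a direct target of p53, had values of 52.6, 38.1 and 48.3 CPM in control libraries and 62.1, 49.3 and 50.0 CPM in GSK503 libraries. Control library 1 lay above GSK503 libraries 2 and 3. The log2FC of *Cdkn1a* was 0.22 (95% confidence interval -0.08 to 0.52, adjusted p = 0.517 from limma), so a fold from 0.948 to 1.43 was within the interval. *Cdkn1b*, which encodes p27 and was the most abundant CDK inhibitor per kb, had values of 87.1, 77.7 and 88.5 CPM in control and 82.0, 87.2 and 82.9 CPM in GSK503 libraries. All GSK503 libraries of *Cdkn1b* lay within the range of the control libraries, and the interval of the fold was the narrowest of the 9 genes (0.885 to 1.12, adjusted p = 0.985 from limma). The log2 ratio of *Cdkn1a* over *Cdkn1b* differed by 0.23 (SE 0.15, exact two-sided permutation p = 0.3, also 0.3 after adjustment over the 3 ratios), and by 0.10 without GSK503 library 1. *Cdkn1c*, the imprinted gene of p57, had values of 3.98, 3.43 and 2.05 CPM in control libraries and 5.10, 4.58 and 3.79 CPM in GSK503 libraries. Only control library 1 overlapped the GSK503 libraries. Its log2FC of 0.54 was the largest after *Gadd45g*, but the interval was wide (95% confidence interval -0.06 to 1.13, adjusted p = 0.43 from limma), and a fold of up to 2.2 was within it. Without control library 3, the lowest, the log2FC of *Cdkn1c* was 0.26.

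The Ink4 genes did not pass the test either. All are on minus strands of GRCm39, *Cdkn2b* (ENSMUSG00000073802) from 89223204 to 89229276 and *Cdkn2c* (ENSMUSG00000028551) from 109517957 to 109524386 on chromosome 4, and *Cdkn2d* (ENSMUSG00000096472) from 21199700 to 21202727 on chromosome 9. *Cdkn2b*, which encodes p15 and can be induced by TGF-β, had values of 48.7, 38.5 and 31.6 CPM in control and 34.0, 41.3 and 38.7 CPM in GSK503 libraries. All GSK503 libraries lay within the control range, and the log2FC of *Cdkn2b* was -0.04 (95% confidence interval -0.37 to 0.29, adjusted p = 0.939 from limma). *Cdkn2c* (p18) had values of 15.1, 15.9 and 16.9 CPM in control and 15.6, 20.3 and 13.9 CPM in GSK503 libraries. The GSK503 libraries of *Cdkn2c* spread beyond the control libraries in both directions, with a log2FC of 0.04 that became -0.075 under scaling by totals only (adjusted p = 0.941 and 0.804 from limma). *Cdkn2d* (p19) had values of 7.73, 5.66 and 5.38 CPM in control and 6.18, 7.68 and 6.79 CPM in GSK503 libraries. The highest and the lowest value of *Cdkn2d* were both in control libraries, and the log2FC was 0.15 (95% confidence interval -0.26 to 0.56, adjusted p = 0.782 from limma).

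In all, 6 of the 9 genes had a positive and 3 a negative log2FC, with a median of 0.04 beside -0.01 over all genes tested. The groups did not overlap for 1 of the 9 genes, while they did not overlap for 9.84% of all genes tested with GSK503 higher and for 9.22% with GSK503 lower. None of the 9 genes was called lower by limma, none of them had an unadjusted p below 0.05 in that direction, and limma-voom called none of them lower.

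**Figure D3:**
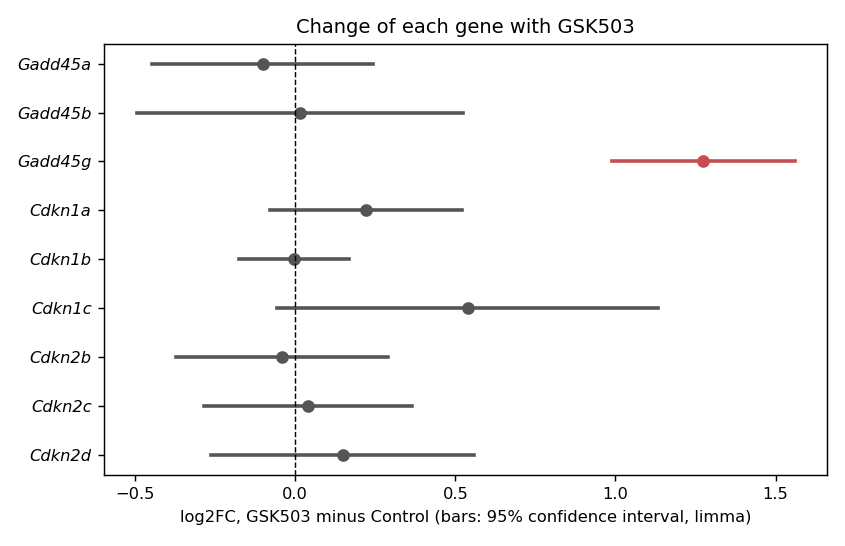
Points give the log2FC (GSK503 minus control) of each gene from limma, and lines the 95% confidence interval. The interval of *Gadd45g* (0.99 to 1.56, red) does not reach 0, whereas the intervals of the other 8 genes (gray) include it.

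The genes around these brakes were followed in 8 lists with 89 genes, chosen for their role. None of the 89 was called at an adjusted p below 0.05 by limma, beside 0.642% of all genes tested, and limma-voom called none. An unadjusted p below 0.05 was found for 10 of the 89 (11.2%), beside 13.3% of all genes tested, a share near that background. The groups did not overlap for 6 of the 89 with GSK503 higher and for 12 with GSK503 lower. Over all genes tested this held for 9.84% and 9.22%, so a lack of overlap alone does not set a gene of these lists apart. Among 12 genes for partners of GADD45 proteins and for kinases of the p38 and JNK branches, 6 had a positive and 6 a negative log2FC. Their median was 0.01. *Map2k3*, a kinase that activates p38, had the smallest p of this list, with 45.6, 47.7 and 54.0 CPM in control and 72.6, 57.6 and 56.5 CPM in GSK503 libraries (log2FC 0.34, adjusted p = 0.232 from limma). *Map2k7*, a kinase of the JNK branch, had a log2FC of 0.21 (adjusted p = 0.389 from limma). For the 9 CDKs and cyclins that the inhibitors hold, the log2FC lay between -0.17 and 0.11. That of *Cdk6* was -0.17 (adjusted p = 0.579), that of *Cdk2* was 0.11 (adjusted p = 0.782) and that of *Ccnd1*, for cyclin D1, was -0.03 (adjusted p = 0.94, all from limma).

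Among 11 genes of the RB family and the E2F factors, which act below the CDKs, 9 had a negative log2FC, with a median of -0.12. *Rbl1*, for the RB relative p107, had 55.9, 53.1 and 58.9 CPM in control and 48.5, 46.8 and 40.3 CPM in GSK503 libraries, a log2FC of -0.31 (adjusted p = 0.174 from limma). *Rb1* had a log2FC of -0.22 (adjusted p = 0.314 from limma). The groups did not overlap for either gene. Of 21 genes of p53 and its targets, 12 had a positive log2FC. *Trp53* had a log2FC of -0.04 (adjusted p = 0.921 from limma). *Mdm2*, the p53 target that encodes its ubiquitin ligase, had 43.7, 41.0 and 40.4 CPM in control and 48.8, 47.2 and 50.3 CPM in GSK503 libraries. These groups did not overlap, with a log2FC of 0.23 (adjusted p = 0.232 from limma). *Ccng1*, for cyclin G1, had a log2FC of 0.16 without overlap (adjusted p = 0.351 from limma).

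For 7 genes of p27 turnover and of SCF ubiquitin ligases, the median log2FC was 0.02. *Rbx1*, a RING subunit of SCF ubiquitin ligases, had a log2FC of 0.24 (adjusted p = 0.33), and *Fbxw7*, whose ligase degrades cyclin E, had a log2FC of -0.14 (adjusted p = 0.487, both from limma). Of 10 TGF-β ligands, receptors and SMADs, 5 had a positive log2FC. Those with the smallest p were *Smad6* (log2FC 0.25, adjusted p = 0.408) and the ligand *Tgfb1* (log2FC -0.51, adjusted p = 0.477, both from limma). *Tgfbr2*, the receptor gene that is humanized in these mice, had a log2FC of -0.11 (adjusted p = 0.576 from limma). Among 9 Polycomb repressors of the Ink4 locus, 6 had a negative log2FC, with a median of -0.05. *Suz12* had 44.7, 42.3 and 50.3 CPM in control and 39.2, 32.3 and 33.3 CPM in GSK503 libraries, a log2FC of -0.39 (adjusted p = 0.136 from limma). *Ezh1* had a log2FC of -0.24 (adjusted p = 0.24) and *Ezh2* one of -0.27 (adjusted p = 0.291, both from limma). For *Suz12*, *Ezh1* and *Ezh2* every GSK503 library lay below every control library, as it did for 9.22% of all genes tested. Of 10 proliferation markers, 6 had a negative log2FC. *Mki67* had a log2FC of -0.39 (adjusted p = 0.136) and *Top2a* one of -0.17 (adjusted p = 0.417, both from limma), without overlap between the groups. Under scaling by totals only, *Rbl1*, *Suz12* and *Mki67* passed, with an adjusted p from limma between 0.043 and 0.0484.

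**Figure D4:**
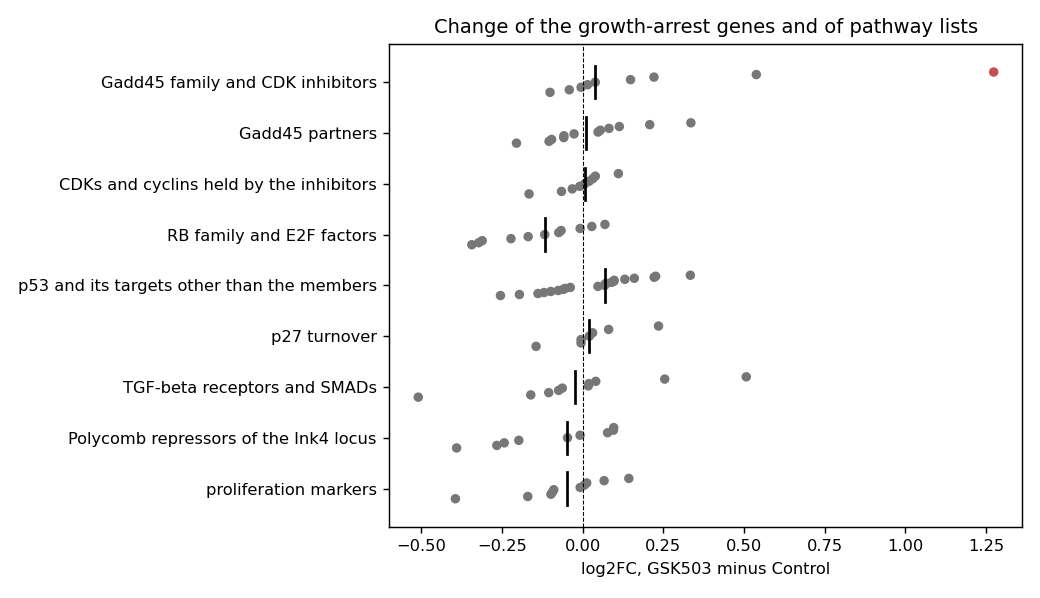
Each point is the log2FC (GSK503 minus control) of a gene, with the growth-arrest genes in the top row and the 8 lists below, and a black bar marks the median of each row. The red point is *Gadd45g* (1.27), the only gene shown with an adjusted p below 0.05. All 89 genes of the lists lie between -0.51 and 0.51.

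The genes whose pattern over the 6 libraries was nearest to that of *Gadd45g* were found by the root mean square difference of their centered log2 values, as a description without a test. They were *Sprr2a3* (0.09), *Capn13* (0.10), *Pros1* (0.12), *Capn9* (0.16) and *Fcgbp* (0.16). *Sprr2a3*, a small proline-rich protein gene from a family of near-identical copies among which reads may be divided, had 108, 89.1 and 93.6 CPM in control and 230.0, 253 and 206 CPM in GSK503 libraries. *Capn13* and *Capn9* encode calpain proteases. *Capn13* had 95.1, 74.9 and 84.3 CPM in control and 161, 251 and 193 CPM in GSK503 libraries. In *Capn13* and *Pros1*, which encodes the anticoagulant protein S, GSK503 library 2 was the highest and GSK503 library 1 the lowest of its group, as for *Gadd45g*. *Fcgbp*, which encodes a mucus protein of goblet cells and was on the goblet marker list, had 8436, 5010 and 5886 CPM in control and 12718, 18361 and 16899 CPM in GSK503 libraries.

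**Figure D5:**
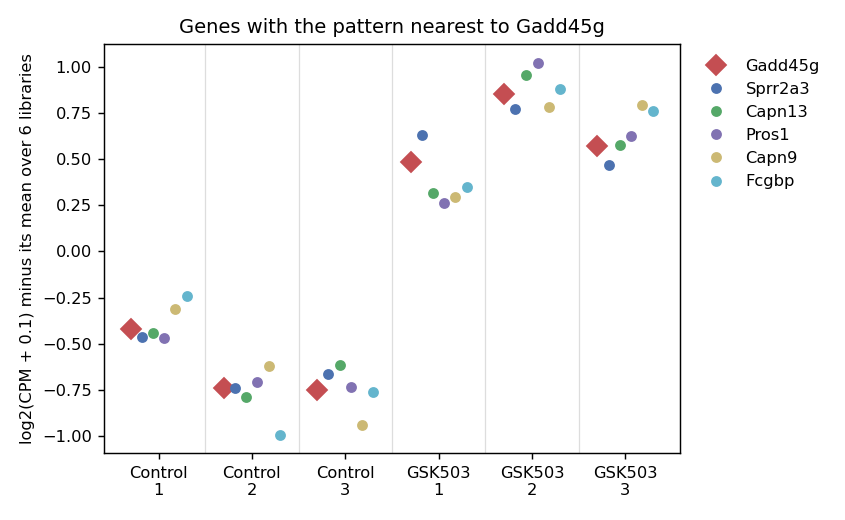
For each of the 6 libraries, points give log2(CPM + 0.1) of *Gadd45g* (red diamonds) and of its 5 nearest genes (circles), each minus its own mean over the libraries. All 6 genes lie below 0 in every control library and above 0 in every GSK503 library.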

How the data were processed

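Crypt RNA of 3 control and 3 GSK503-treated mice was analysed, with 1 library per mouse. The deposited signal is an estimated count per 1000000 of the TMM-scaled library. To make it, the authors used STAR with GRCm39 for alignment, RSEM for estimated counts, and edgeR's TMM method for scaling. A filter on genes before deposit is not given in the sources used here. Between 75.1% and 78.0% of the values above 0 were whole multiples (tolerance 0.01) of a step per library, the worth of 1 count, and library totals came from this step.

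The count model of the paper was not used on scaled values, and limma (version 3.58.1, under R 4.3.3) took its place. It was run on log2(value + 0.1) with an intensity trend, over the 16670 genes that reached 0.1 in 3 or more libraries, and understates the fold of low genes. All 9 growth-arrest genes passed this filter. Adjusted p-values (Benjamini-Hochberg) cover all genes tested. Single ratios were compared with exact two-sided permutation tests. The genes, lists and tests were chosen with earlier results of these data known. Named are all 9 genes, the 2 genes with the smallest p in each list, *Trp53*, *Mdm2*, *Ezh2*, *Tgfbr2*, *Mki67* and *Ccnd1*, and the 5 genes nearest to the called gene. Another gene that the rule names is not reported here. *Rbl1*, *Suz12* and *Mki67* also passed under an alternative scaling.

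Positions and exon lengths are from GENCODE on GRCm39, and promoter sequences from RefSeq on GRCm38.p6. Alternatives were other pseudocounts, filters and scalings, limma without the trend or with robust empirical Bayes, limma-voom on recovered counts, a replicate block and each library left out. The limma script was tested on simulated data, in which all genes had the same dispersion. That run used the intensity trend only, so it does not bear on the choice between limma with and without the trend. Python 3.11.15, scipy 1.17.1 and matplotlib 3.10.9 were used.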

Additional observations from a re-analysis of the deposited data

How the results depend on the processing

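The log2FC of *Gadd45g* was positive under all 19 alternatives (1.16 to 1.38), and its adjusted p from limma was below 0.05 in 17 of them. The call was lost without the intensity trend (log2FC 1.27, adjusted p = 0.109) and without GSK503 libraries 1 and 2 together (log2FC 1.21, adjusted p = 0.0763), an alternative chosen after seeing the data that assumes the lone library to vary like the others. The number of growth-arrest genes called higher was then 0 in place of 1, and the cause was not tested. Without X and Y genes, also chosen after seeing the data, the adjusted p from limma was 0.00384. This setting only takes those genes out of the set tested and leaves the log2FC of *Gadd45g* at 1.27. It therefore cannot separate sex from GSK503. No alternative called another of the 9 genes. The replicate numbers did not pair the libraries (correlations of same-numbered libraries 0.03, -0.13 and -0.12). With the replicate block, *Gadd45g* had an adjusted p of 0.0335, and over all genes 23 were called higher and 10 lower at 0.05, and 73 and 21 at 0.1.

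Genes with a log2FC near 0 changed sign. *Gadd45b* went from 0.02 to -0.10 and *Cdkn2c* from 0.039 to -0.075 with library size alone, and to -0.45 and -0.20 without GSK503 libraries 1 and 2. With each library left out in turn, *Gadd45b* ranged from -0.20 to 0.25, *Cdkn1b* from -0.064 to 0.031, *Cdkn2b* from -0.19 to 0.12 and *Cdkn2c* from -0.12 to 0.16. Others kept their sign but not their size, with *Gadd45a* from -0.28 to -0.0016, *Cdkn1a* from 0.087 to 0.32, *Cdkn1c* from 0.26 to 0.73 and *Cdkn2d* from 0.051 to 0.31. None of these had an adjusted p from limma below 0.05. The ratio of *Gadd45g* over *Gadd45a* kept a log2 difference of 1.17 to 1.63 over 9 alternatives, that over *Gadd45b* one of 1.06 to 1.55, and that of *Cdkn1a* over *Cdkn1b* one of 0.10 to 0.31.

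Over all genes, 83 were called higher and 24 lower at 0.05, and 235 and 93 at 0.1. Library size alone gave 178 lower at 0.05 and 785 at 0.1, and called 1 gene each among the RB and E2F, Polycomb and proliferation lists. Without the trend, 9 were higher and 7 lower at 0.05, and 21 and 9 at 0.1. Without GSK503 libraries 1 and 2, 9 were higher and 14 lower at 0.05, and 23 and 19 at 0.1. With each library left out in turn, 21 to 125 were higher and 9 to 104 lower at 0.05, and 40 to 358 and 15 to 249 at 0.1.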
